A study of Mus musculus with 4 samples.

Results

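The early B-cell genes described here were read in single cells of mouse bone marrow that had been sorted as haematopoietic stem cells (HSC): Igll1, Vpreb1, Vpreb3, Cd79a, Cd79b, Ebf1, Dntt, Blnk, Il7r and Rag1. They are 10 of the 24411 gene rows in the count tables, chosen by name, and all 10 were found in the tables of all 4 libraries. Of 384 cell barcodes, 188 had at least 1000 detected genes and were kept as cells. Among these, 15 cells held at least 3 of the 10 genes at 10 or more unique molecular identifiers (UMIs) each, and these are called the co-expressing cells; the remaining 173 are called the other cells. The study compared HSC of Mat KO mice (2 libraries, Mat KO 1 and Mat KO 2) with HSC of wild-type mice (2 libraries, WT 1 and WT 2). The labels give no age, strain, treatment or allele, do not spell out what Mat stands for, and leave unsaid if a genotype's 2 libraries are 2 animals. The p-values below are therefore about library-to-library spread alone, and some of it may be technical. Each cell was picked singly and read by a modified STRT-seq method, in which the oligo-dT primer adds a cell barcode and a UMI to each cDNA.

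B cells arise in bone marrow in an ordered series of stages. In pro-B cells EBF1 and its partner factors switch on the lineage, RAG1 and RAG2 cut the heavy chain locus, and terminal transferase, the product of Dntt, adds bases at the joins. The products of Igll1 and Vpreb1 form the surrogate light chain, which pairs with a new heavy chain and with CD79A and CD79B as the pre-B receptor; BLNK carries its signal inward, and IL-7 receptor signalling keeps the early cells dividing. Dntt is known to be shut off after the heavy chain is made, the surrogate light chain genes follow in small pre-B cells, and Ms4a1 and class II genes mark later B cells. Some of these genes are also known at low levels in uncommitted lymphoid progenitors, a state often called priming.

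Igll1 and Vpreb1 lie side by side on chromosome 16, both on the minus strand, with 4415 bases between the gene bodies. In RefSeq coordinates of GRCm38.p6, the assembly also named mm10, Igll1 spans chr16:16860671-16863985 and Vpreb1 spans chr16:16868401-16869255. Blnk (chr19:40928927-40994221, minus strand) and Dntt (chr19:41029275-41059525, plus strand) lie 35053 bases apart. The upstream sequences of Igll1, Vpreb1 and Cd79a are shown because these genes of the pre-B receptor were detected together in the co-expressing cells. Each is the 250 bases before the gene start, read 5′ to 3′ on the gene's strand from the RefSeq promoter windows of GRCm38.p6. Capitals mark matches to CCCNNGGG, the core of the EBF motif, or to CAGGTG, an E-box, on either strand; CACCTG is CAGGTG read from the other strand.
Igll1, chr16:16863986-16864235, minus strand: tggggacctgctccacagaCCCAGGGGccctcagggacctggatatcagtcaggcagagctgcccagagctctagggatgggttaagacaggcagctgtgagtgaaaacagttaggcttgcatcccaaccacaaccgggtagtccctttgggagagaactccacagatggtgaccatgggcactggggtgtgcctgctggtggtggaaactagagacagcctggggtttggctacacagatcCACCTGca
Vpreb1, chr16:16869256-16869505, minus strand: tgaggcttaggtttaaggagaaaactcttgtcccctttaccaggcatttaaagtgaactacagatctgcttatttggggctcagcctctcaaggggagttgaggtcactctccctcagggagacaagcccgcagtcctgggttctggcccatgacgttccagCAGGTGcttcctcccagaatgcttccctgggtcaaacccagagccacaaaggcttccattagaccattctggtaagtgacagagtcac
Cd79a, chr7:24897247-24897496, plus strand: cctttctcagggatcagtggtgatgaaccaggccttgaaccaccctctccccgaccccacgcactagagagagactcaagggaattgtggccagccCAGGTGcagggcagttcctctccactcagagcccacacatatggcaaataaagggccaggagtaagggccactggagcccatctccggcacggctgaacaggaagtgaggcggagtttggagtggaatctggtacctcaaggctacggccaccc

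Over windows of 300 bases (250 before and 50 after the gene start), CAGGTG was found at 5 of the 9 genes with a window, namely Igll1, Vpreb1, Cd79a, Blnk and Rag1, and in 20.2% of all 32851 mouse windows. CCCNNGGG was found at Igll1 among the 9 genes and in 13.7% of all windows. The EBF palindrome, which extends that core by a base on each side, was in none of the 10 windows of these genes (Ebf1 has 2) and in 0.904% of all. The broad E-box CANNTG, which contains every CAGGTG match, was in 9 of the 10 windows and in 72.3% of all, so it sets these genes little apart from other promoters.

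The libraries held 1900319 (Mat KO 1), 1768647 (Mat KO 2), 3183279 (WT 1) and 3253608 (WT 2) UMIs in 44, 48, 48 and 48 kept cells. The WT libraries were thus deeper, with median UMIs per cell of 53092.5 and 51437 against 33612.5 and 27845 in Mat KO. UMIs ran above molecules, since spike-ins present in no more than 20% of wells, and so mostly as lone molecules, averaged 5.18 to 7.37 UMIs per library where detected; the minimum of 10 UMIs per gene was set above that. Barcodes that were not kept held 2, 1, 0 and 0 UMIs of all 10 genes together. The label HSC holds for most cells: Hlf, a stem cell transcription factor, was detected in 157 of the 173 other cells, 99 of them at 10 or more UMIs. It was detected in 8 of the 15 co-expressing cells and reached 10 UMIs in none of them.

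The 15 co-expressing cells carried most of the UMIs of every one of the 10 genes. They were 5 of 44 cells in Mat KO 1, 3 of 48 in Mat KO 2, 5 of 48 in WT 1 and 2 of 48 in WT 2. Of the UMIs in kept cells, they held 95.5% for Igll1, 93.8% for Vpreb1, 94.5% for Vpreb3, 95.7% for Ebf1 and 95.3% for Rag1, and for Cd79a all but 36 of 893 UMIs. The shares were lower for Blnk (91.9%), Il7r (88.2%), Cd79b (81.1%) and Dntt (74.2%). Since the cells were chosen by these genes, the shares are a description of how the genes are concentrated and are not tested.

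Few cells lay near the limit of the rule, which uses these same counts, so this is a description. Of the 188 cells, 159 held none of the 10 genes at 10 UMIs, 13 held 1 and 1 held 2, while 13 cells held 5 or more and 3 held all 10. Summed over the 10 genes, the co-expressing cells ranged from 1078 to 16967 CPM (counts scaled to the cell's UMI total) with a median of 8508. The other cells had a median of 61.0 and a 90th percentile of 308. In sum the groups overlapped, since 2 other cells lay above the lowest co-expressing cell. The cell nearest the rule from outside was Mat KO 1 cell 34, a shallow cell of 4910 UMIs with a UMI of all 10 genes, 2 of them at 10 or more, and 11202 CPM in sum. The cell nearest from inside was WT 2 cell 17, with exactly 3 genes at 10 or more UMIs, namely Cd79a (28), Blnk (14) and Cd79b (11), and 1078 CPM in sum.

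**Figure D1:**
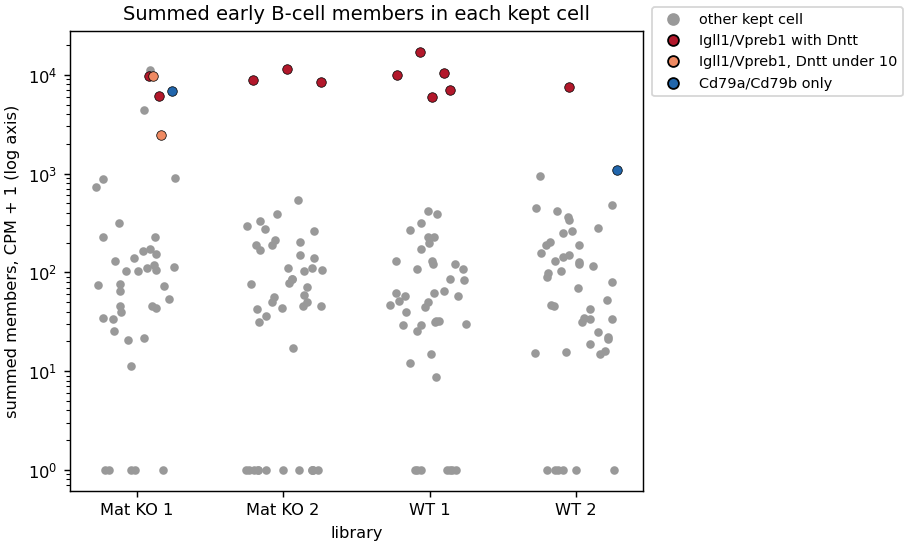
Each point is 1 kept cell, placed by library (x axis) and by the summed level of the 10 early B-cell genes in CPM + 1 on a log axis (y axis), with co-expressing cells coloured by the genes they hold at 10 or more UMIs. In every library the co-expressing cells stand above nearly all others; the 2 highest grey points in Mat KO 1 are cell 34 (11202 CPM) and cell 27 (4352 CPM), whose UMIs were nearly all of Dntt.

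Surrogate light chain genes marked most of the co-expressing cells. Igll1 reached 10 UMIs in 13 of the 15 cells (median 98, highest 450), and Vpreb1, its partner in the surrogate light chain, reached 10 in the same 13 cells (median 57, highest 265). Across the 15 cells their log2(CPM + 1) levels went together (Pearson r 0.94, Spearman rho 0.60). On the log scale r can lean on Mat KO 1 cell 35 and WT 2 cell 17, which had no Vpreb1 and 0 and 1 UMIs of Igll1. The cells were also chosen by these genes and come from 4 libraries that differ in depth, so this is a description. Vpreb3, which binds immunoglobulin chains inside the early B cell, reached 10 UMIs in 14 cells (median 105, highest 384). The third surrogate gene of the family, Vpreb2, was detected in 12 cells and reached 10 UMIs in 5, up to 58 in WT 1 cell 42. It was nearly silent elsewhere, with 6 UMIs over 5 of the 173 other cells.

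The signalling parts of the receptor were as widespread. Cd79a, a signal chain of the pre-B and B-cell receptors, had a UMI in all 15 cells and reached 10 in 12 (median 34, highest 178). Cd79b, its partner chain, reached 10 in 13 cells (median 26, highest 259), and both chains did so in 11. Blnk, the adaptor downstream of them, had a UMI in all 15 cells and reached 10 in 11 (median 18, highest 126). Il7r, the receptor chain for IL-7, was more uneven: it reached 10 in 9 cells, with 203 UMIs in WT 1 cell 42 and 161 in WT 2 cell 14, and 3, 1 and 0 in Mat KO 2 cell 44, WT 1 cell 18 and WT 2 cell 17.

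Ebf1, the transcription factor that specifies the lineage, reached 10 UMIs in 11 cells (median 34, highest 140) and was at 0 in WT 1 cell 42, a cell of 200906 UMIs with 355 of Igll1 and 384 of Vpreb3. Dntt, the terminal transferase, reached 10 in 11 cells (median 42, highest 279). Rag1, the recombinase subunit, reached 10 in 7 cells (highest 91), and each of these also held Dntt and Igll1 at 10 or more. Its partner Rag2 reached 10 UMIs only in WT 2 cell 14 (45) and Mat KO 2 cell 41 (27). The 3 cells with all 10 genes at 10 or more were these 2 and WT 1 cell 3. In WT 1 cell 3, for example, there were 183 UMIs of Igll1, 103 of Vpreb1, 116 of Vpreb3, 64 of Cd79a, 77 of Cd79b, 52 of Ebf1, 43 of Dntt, 16 of Blnk, 91 of Il7r and 30 of Rag1.

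**Figure D2:**
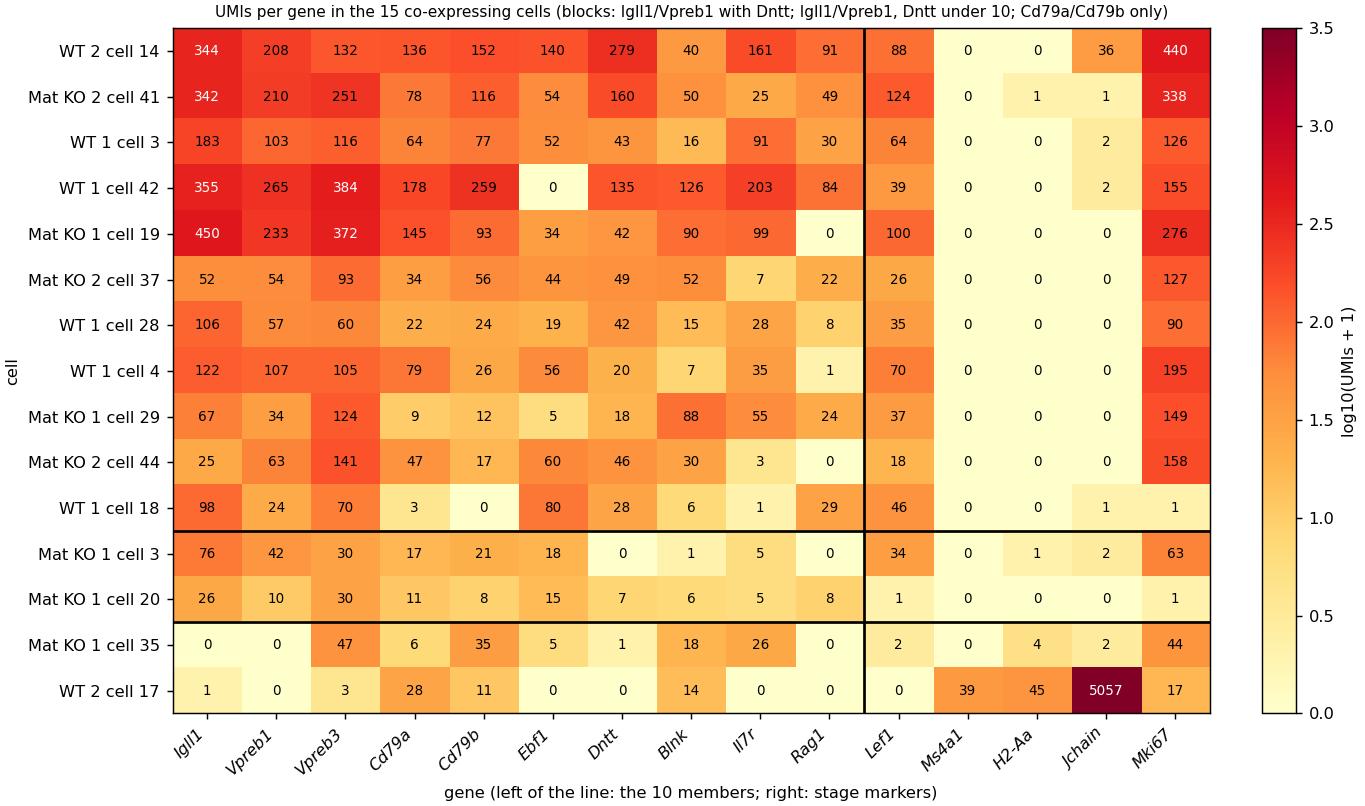
Each row is 1 of the 15 co-expressing cells and each column a gene; the numbers are UMIs and the colour is log10(UMIs + 1). The upper block of 11 cells holds Igll1 or Vpreb1 with Dntt, the middle block of 2 holds them with Dntt under 10, and the lower block of 2 lacks them; Ms4a1, H2-Aa and Jchain are high in WT 2 cell 17.

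By stage, the cells fell into 3 groups named by their genes. The largest, 11 cells (2 in Mat KO 1, 3 in Mat KO 2, 5 in WT 1 and 1 in WT 2), held the surrogate light chain together with Dntt at 10 or more UMIs, a pairing known from pro-B cells. The stage lists without the 10 genes did not separate pro-B from pre-B: in these 11 cells pro-B markers had a median of 1666 CPM against 609 in the other cells, and pre-B markers 2744 against 502. Later B markers were also higher in these 11 cells, at a median of 934 CPM against 233. Lef1, a transcription factor of pro-B and pre-B cells, ranged from 18 to 124 UMIs in them. It was rare outside the 15 cells, at 3.07 CPM in the pooled other cells against 519 CPM in the pooled co-expressing cells. Kit, a receptor of stem cells and early pro-B cells, reached 10 UMIs in 4 of the 11: WT 2 cell 14 (29), Mat KO 2 cell 37 (21), Mat KO 2 cell 44 (20) and Mat KO 1 cell 29 (11). Flt3, a receptor of earlier lymphoid progenitors, reached 10 only in WT 2 cell 14 (11).

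A second group of 2 cells, Mat KO 1 cells 3 and 20, held the surrogate light chain with Dntt under 10 UMIs. Cell 3 had 76 UMIs of Igll1, 42 of Vpreb1 and 0 of Dntt, Rag1 and Rag2 at a depth of 86050 UMIs, with 34 of Lef1. Cell 20 had 26 of Igll1, 10 of Vpreb1 and 7 of Dntt at a depth of 12974 UMIs; at that depth a Dntt value under 10 does not separate it from the larger group. Surrogate light chain without Dntt is the pattern of large pre-B cells, but it rests here on 1 deep cell. Il2ra, a marker of small pre-B cells, had no UMI in any of the 188 kept cells, which allows up to 0.297 CPM over them. Nrgn, another marker of that stage, reached 10 UMIs in 1 of the 15.

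The last 2 cells held Cd79a or Cd79b at 10 or more UMIs without surrogate light chain and Dntt, and they differed from each other. WT 2 cell 17 had 39 UMIs of Ms4a1 (the B-cell surface protein CD20), 67 of Cd74, 45 of H2-Aa and 42 of Cd83, and also 5057 of Jchain, 128 of Mzb1, 79 of Tnfrsf17 and 11 of Prdm1, which are genes of antibody-secreting cells. Its summed plasma cell markers reached 101430 CPM, against a median of 678 over the 15 cells and 187 over the other cells. Cell 35 of Mat KO 1 had 47 UMIs of Vpreb3, 35 of Cd79b, 26 of Il7r, 18 of Blnk and 44 of the proliferation gene Mki67, and no Igll1, Vpreb1 or Rag1. It also had 21 of Bach2, 16 of Spib and 13 of Irf4, transcription factors of the B lineage, but no Ms4a1. In UMIs Irf4 does not set it apart, since it was as high or higher in 5 cells of the first group, up to 51 in Mat KO 1 cell 19. Bach2 and Spib had their highest UMIs of the 15 cells in this cell, at a depth of 20160 UMIs. Next were 18 of Bach2 in Mat KO 1 cell 19 (160595 UMIs) and 10 of Spib in Mat KO 1 cell 29 (70823 UMIs). Besides WT 2 cell 17, none of the 15 held Ms4a1, and Cr2 and Fcer2a, receptors of mature B cells, had no UMI in any of the 15, which allows up to 2.28 CPM each. Other later B markers went the other way. The whole list had a median of 987 CPM in the 15 cells, and all 15 lay above the other cells' median of 233. Cd37 reached 10 UMIs in 11 of the 15, and the class II gene H2-Ab1 in 6.

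The 15 cells lacked the stem cell programme that the sort aimed for. Summed over 20 long-term HSC markers they ranged from 99.2 to 1854 CPM (median 446), and the other cells had a median of 5742; all 15 lay under the 10th percentile of the other cells, 2297. Procr, a surface receptor of stem cells, was at 4.55 CPM in the pooled co-expressing cells and 84.1 in the other cells, and Mecom, a stem cell transcription factor, at 3.80 and 104 CPM. B-lineage transcription factors apart from Ebf1 summed to 2324 to 6215 CPM (median 4947), each cell above the other cells' median of 1875. Within that list Tcf3, which encodes the E proteins, stood at 381 CPM against 67.9, and Pou2af1, a coactivator of immunoglobulin genes, at 301 against 3.64. Pax5, the commitment factor of the lineage, was scarce, with 5 UMIs over 3 of the 15 cells and none in the other cells. Some factors of the list were lower in the co-expressing cells. They were Spi1 (50.1 against 122 CPM), Id2 (15.2 against 65.4), Zbtb7a (80.5 against 99.3) and, by little, Bcl11a (230 against 235). All other genes of the list were higher.

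Cycling genes were high in most of the same cells. The 20 G2 and M genes summed to a median of 11085 CPM in the co-expressing cells and 381 in the other cells, and 11 of the 15 lay above the other cells' 90th percentile of 4926. Mki67, a marker of dividing cells, reached 10 UMIs in 13 of the 15 and Top2a, the mitotic topoisomerase, in 12. Low G2 and M sums were found in WT 1 cell 18 (851 CPM), Mat KO 1 cell 20 (617) and WT 2 cell 17 (435). As a result the few co-expressing cells held 44.7% of the G2 and M UMIs of Mat KO 1, 79.4% of Mat KO 2, 33.6% of WT 1 and 27.7% of WT 2. For the 20 S phase genes these shares were 38.5%, 36.5%, 37.5% and 13.9%, lower than for G2 and M in 3 libraries and higher in WT 1. Between genotypes, 15 of the 20 G2 and M genes had higher fitted levels in Mat KO over all kept cells (median log2 difference 0.22), and 5 of 20 did in the other cells alone (median -0.29). The S phase genes had 2 higher and 18 lower over all kept cells (median -0.71), and 1 higher and 19 lower in the other cells (median -0.95). No gene of these 2 lists passed the edgeR test in either set of cells. Of all genes, 0.075% passed over all kept cells and 0.184% in the other cells. At an unadjusted p under 0.05 there were 2 G2 and M genes in each set, and 7 S phase genes over all kept cells and 4 in the other cells. The shares of all genes at that p were 7.82% and 7.65%, and 49.4% and 49.6% of all genes had higher fitted levels in Mat KO.

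Markers of other lineages were checked in the same cells. T, NK and innate lymphoid markers summed to a median of 52.8 CPM (0 to 694) against 103 in the other cells. Cd3d, Cd3e and Cd3g had no UMI in the 15, but the other cells held few as well (10, 0 and 15 UMIs). Lck and Il1rl1 of this list went the other way, at 45.5 against 17.4 and 8.35 against 2.39 CPM in the pooled cells. Lck reached 10 UMIs in 2 of the 15. Megakaryocyte markers were at a median of 13.5 CPM (0 to 113) against 349, and erythroid markers at 230 (0 to 752) against 780. Granulocyte and monocyte markers ranged from 134 to 9095 CPM with a median of 1457, near the other cells' 1460. This came mostly from S100a8 (1692 UMIs over the 15 cells) and S100a9 (659). The progenitor genes Elane, Mpo and Ctsg had none, but the other cells held few as well (6, 40 and 3 UMIs). Prtn3 of the same list had 6 UMIs over 4 of the 15 cells, and 1963 over 135 of the other cells. A lone cell, WT 2 cell 14, held 1053 of the S100a8 and 405 of the S100a9 UMIs; without it the sums were 639 and 254. Plasmacytoid dendritic markers were higher, at a median of 717 CPM (84.9 to 2270) against 337, with 12 of the 15 cells above the other cells' median. Tcf4, Ly6d and Irf8, which B-lineage cells also express, had the most UMIs. Siglech, which defines these dendritic cells, had no UMI in any kept cell, so its absence does not set the 15 apart. Whether S100a8 and S100a9 in these cells are their own RNA was not tested.

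**Figure D3:**
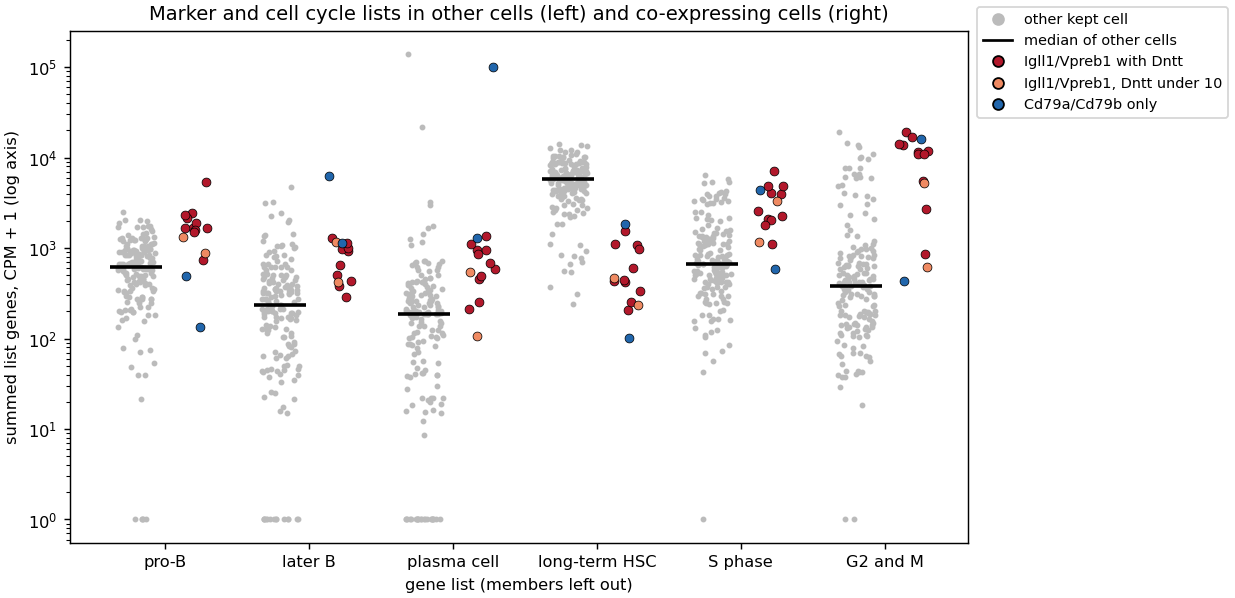
Points are cells, placed by the summed level of 6 gene lists without the 10 early B-cell genes, in CPM + 1 on a log axis; for each list the other cells are on the left with their median as a bar and the 15 co-expressing cells on the right. Co-expressing cells lie low for long-term HSC markers and mostly high for G2 and M genes, and WT 2 cell 17 stands apart for the later B and plasma cell lists.

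The genotypes did not differ detectably in how many cells co-expressed the genes. The share was 11.4% in Mat KO 1 (exact binomial 95% interval 3.79 to 24.6%), 6.25% in Mat KO 2 (1.31 to 17.2%), 10.4% in WT 1 (3.47 to 22.7%) and 4.17% in WT 2 (0.509 to 14.3%). The intervals overlap widely, and they cover counting error only. Mean shares were 8.81% in Mat KO and 7.29% in WT, a difference of 1.52 percentage points (exact two-sided permutation test over libraries, p = 0.667, where 2 against 2 libraries cannot go below 0.333). The difference changed sign without Mat KO 1 (-1.04) and without WT 2 (-1.61), and with every cell thinned to 8800 UMIs (-0.286).

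Summed over all kept cells, the surrogate light chain genes were lowest in WT 2. Igll1 had 649, 437, 900 and 367 UMIs in Mat KO 1, Mat KO 2, WT 1 and WT 2, or 342, 247, 283 and 113 CPM. Vpreb1 stood at 179, 198, 182 and 71.6 CPM in the same order, with WT 1 inside the Mat KO range for Igll1 and Vpreb1 alike. A summed library cannot tell fewer B-lineage cells from less RNA per cell, and WT 2 had 1 co-expressing cell with these genes at 10 or more UMIs. Between genotypes Igll1 differed by 0.60 (SE 0.39) on the log2 scale and Vpreb1 by 0.60 (SE 0.40), Mat KO minus WT, and neither passed the test (edgeR quasi-likelihood, adjusted p 0.757 and 0.768, n = 2 libraries each).

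For 3 genes the 2 Mat KO libraries lay above both WT libraries, for Dntt because of a lone cell. Vpreb3 had 342 and 286 CPM in the Mat KO libraries, and 239 and 47.9 in the WT libraries, a log2 difference of 1.16 (SE 0.54, edgeR adjusted p 0.648). Dntt stood at 164 and 151 CPM against 87.6 and 96.8, a log2 difference of 0.80 (SE 0.32, edgeR adjusted p 0.588). Blnk stood at 114 and 76.3 CPM against 53.7 and 26.1, a log2 difference of 1.29 (SE 0.47, edgeR adjusted p 0.571). Of all 10661 genes tested, 17.8% had both Mat KO libraries above both WT libraries, so 3 of 10 is not far from the background. Mat KO 1 cell 27 held 71.2% of the Dntt UMIs of its library; without it Mat KO 1 stood at 48.7 CPM, under both WT libraries, and Dntt is no longer among the 3.

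The remaining genes overlapped between genotypes. Cd79a ranged from 53.8 to 112 CPM over the 4 libraries, Cd79b from 86.1 to 139, Ebf1 from 44.0 to 91.0, Il7r from 42.4 to 122 and Rag1 from 18.4 to 48.4. Their log2 differences lay between -0.32 (Rag1, SE 0.61) and 0.35 (Ebf1, SE 0.47). In all, 7 of the 10 genes had higher and 3 lower fitted levels in Mat KO, with a median log2 difference of 0.48 against -0.01 over all genes. None of the 10 passed the edgeR test after adjustment over all genes, where 0.075% of all genes did (8 of 10661), and DESeq2 called none of them either (background 1.15% of 10454). At an unadjusted p under 0.05 edgeR had 2 of the 10, Dntt and Blnk, and 7.82% of all genes. Vpreb3 passed when WT 1 was left out (log2 difference 2.73, edgeR adjusted p 0.00422), which leaves WT 2 alone for its genotype and assumes that it varies like Mat KO, and with no expression filter (edgeR adjusted p 0.0255). With cells thinned to 8800 UMIs the log2 difference of Igll1 was -0.070 and that of Ebf1 -0.21; this setting also leaves out 18 shallow cells.

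**Figure D4:**
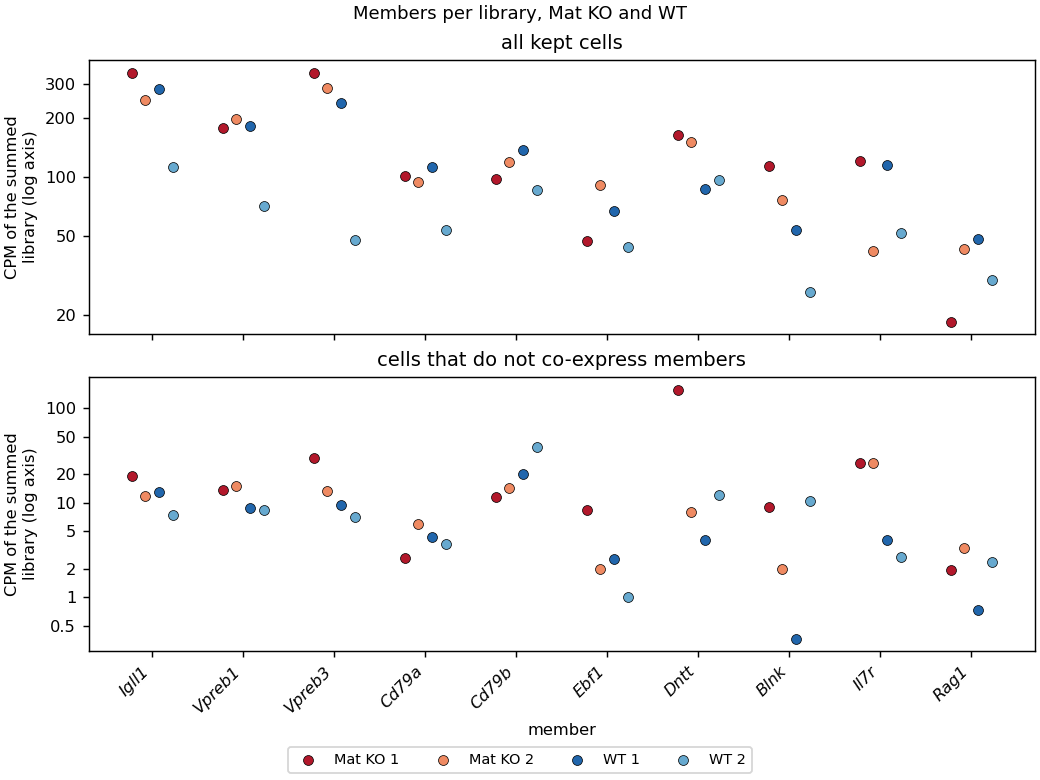
Points are libraries; the y axes give the CPM of each gene in the summed library on a log axis, over all kept cells (top) and over the 173 other cells (bottom). In the top panel Vpreb3, Dntt and Blnk have both Mat KO libraries above both WT libraries; in the bottom panel Dntt of Mat KO 1 stands at 157 CPM, nearly all from 1 cell, and Cd79b is highest in WT 2 (39.3).

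Genes that work with the 10 were counted from 4 pathway lists in the same fit. Of the pre-B receptor and its signalling, 22 genes were tested, 19 with higher and 3 with lower levels in Mat KO, at a median log2 difference of 0.60, and none passed the edgeR test; 6 of the 22 are among the 10 genes above. Of B-lineage transcription factors, 17 of 24 were higher (median 0.50), with the smallest edgeR adjusted p at 0.126 for Id2, an inhibitor of E proteins. Of V(D)J recombination and end joining 8 of 15 were higher (median 0.15), and of the IL-7 receptor pathway 10 of 17 (median 0.29), again with no gene past the threshold. At an unadjusted p under 0.05 edgeR had 6, 4, 2 and 2 genes of the 4 lists in that order, beside 7.82% of all genes; the 6 of the receptor list include Blnk. Over all genes tested 49.4% were higher in Mat KO. In the 173 other cells alone, the receptor list had 16 of 18 higher at a median of 0.58, and the transcription factor list 10 of 19 at a median of 0.14. Of those 18 receptor genes, 5 are among the 10 genes, which the choice of the other cells keeps low. The edgeR test called none of the genes of the 4 lists there, where it called 0.184% of all genes. At an unadjusted p under 0.05 it had 1, 2, 2 and 3 in the order above, beside 7.65% of all genes.

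Outside the co-expressing cells the 10 genes were present at a low level and in many cells. Of the 173 other cells, 143 had at least 1 UMI of any of the 10 and 30 (17.3%) had none. Vpreb3 was seen in 61 of them, Igll1 in 60, Cd79b in 57, Vpreb1 in 52, Dntt in 44, Blnk in 34, Cd79a in 28, Il7r in 21, Ebf1 in 18 and Rag1 in 14. Most of these values were exactly 1 UMI: the share at 1 ran from 54.4% for Cd79b to 85.7% for Cd79a and Rag1, with a median over the 10 genes of 67.2%. Among 5554 genes seen in a like number of other cells (14 to 61) the median was 35.5%, with a 10th percentile of 25% and a 90th percentile of 50%, and rarely seen spike-in species were at 1 UMI in 35.0% of their wells. Each of the 10 genes lay above that 90th percentile. Leaving out the co-expressing cells took away high values of the 10 genes, but did not do so for the 5554 as a set. That raises the share at 1 UMI, so the comparison is not read as a property of the low level.

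**Figure D5:**
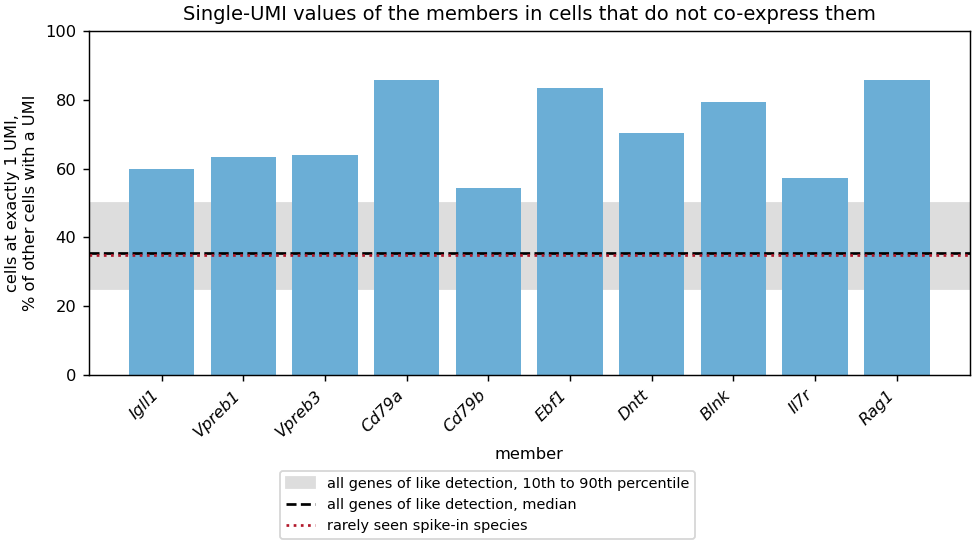
Bars give, for each gene, the percentage of other cells with a UMI that held exactly 1; the grey band is the 10th to 90th percentile of 5554 genes of like detection, the dashed line their median (35.5%) and the dotted line the rarely seen spike-ins (35.0%). All 10 bars stand above the band, with Cd79b (54.4%) and Il7r (57.1%) nearest to it. The other cells were chosen for low values of these 10 genes, which raises the bars.

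The low level was small beside that of the co-expressing cells. Pooled over libraries and leaving out values of 10 or more, UMIs in the other cells came to 4.3% of those in the co-expressing cells for Igll1, 5.9% for Vpreb1, 5.2% for Vpreb3, 4.2% for Cd79a, 4.5% for Ebf1, 6.6% for Dntt, 3.9% for Il7r and 4.9% for Rag1. Blnk (8.8%) and Cd79b (12.3%) were higher. With all values kept, the ratio varied between libraries, from 4.17% to 6.38% for Igll1, 3.54% to 15.6% for Vpreb3, 1.90% to 16.9% for Ebf1, 0.588% to 57.4% for Blnk, 10.7% to 71.8% for Cd79b, 3.07% to 114% for Il7r and 4.10% to 359% for Dntt. The source of these UMIs was not tested; barcodes used in several libraries were compared. In 41 other cells whose barcode belonged to a co-expressing cell in another library, 97.6% had a UMI of the 10 genes, at 96.3 CPM in sum and a median depth of 48100 UMIs. In the 132 whose barcode did not, 78.0% had one, at 129 CPM and a median depth of 32801; without Mat KO 1 cell 27, which is rich in Dntt, the latter stood at 94.8 CPM. By library, cells that share a barcode had 76.3 against 343 CPM in Mat KO 1, 119 against 96.3 in Mat KO 2, 97.2 against 57.2 in WT 1 and 94.7 against 94.2 in WT 2. They were thus higher in Mat KO 2 and WT 1, nearly equal in WT 2 and lower in Mat KO 1, where the cells without a shared barcode include cell 27. The co-expressing cells used 14 barcodes, and 1 barcode, that of cell 3, carried a co-expressing cell in both WT 1 and Mat KO 1. In Mat KO 1 that cell held 41.5% as many UMIs of Igll1 as in WT 1 but 5.49% of Il7r and none of Dntt, so the values were not in a fixed ratio.

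Myeloid cells served as cells that should lack the 10 genes. After seeing the data, 9 other cells were picked with at least 2 of 7 granulocyte or monocyte genes at 10 UMIs and fewer than 2 of 6 HSC genes, and 54 with the reverse. A UMI of any of the 10 genes was found in 100% of the 9 (median depth 96684 UMIs) and 90.7% of the 54 (median depth 63462.5). Thinned to 8800 UMIs per cell, these shares were 33.3% and 46.3%, so the order turned at that depth. Without Cd79b the thinned shares were 22.2% and 40.7%. Unthinned, Igll1 was seen in 66.7% of the 9 and 40.7% of the 54, at 15.5 and 10.9 CPM. For Rag1 the shares were 33.3% and 9.26%, for Dntt 55.6% and 37.0%, for Il7r 33.3% and 18.5%, for Vpreb3 44.4% and 42.6%, and for Cd79a and Blnk alike 33.3% and 22.2%. For these 7 genes the share in the HSC-marked cells was at or below that in the myeloid-marked cells, which are deeper and only 9. Thinned to 8800 UMIs per cell the shares in myeloid-marked and HSC-marked cells were 22.2% and 7.41% for Igll1, 11.1% and 9.26% for Vpreb3 and 11.1% and 3.70% for Rag1. For Dntt (0% and 5.56%), Il7r (0% and 7.41%), Cd79a (0% and 3.70%) and Blnk (0% and 1.85%) the order turned at that depth, so no order is read for these genes. Vpreb1 (33.3% and 37.0%, at 9.02 and 9.03 CPM) and Ebf1 (11.1% and 14.8%, at 2.58 and 1.90 CPM) differed by less than the 1 cell in 9 that the myeloid-marked group can resolve. Thinned, the shares were 0% and 9.26% for Vpreb1 and 11.1% and 3.70% for Ebf1, so no order is read for them either.

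Of the genes seen in a larger share of the HSC-marked cells before thinning, Cd79b had the widest gap. It was seen in 22.2% of the myeloid-marked and 51.9% of the HSC-marked cells, at 2.58 and 29.2 CPM, and 5 of the 54 HSC-marked cells held 10 or more UMIs of it. Thinned to 8800 UMIs per cell the shares were 22.2% and 18.5%, so at that depth the share did not show the difference. In all, 7 other cells held at least 10 UMIs of Cd79b, all in the WT libraries, which are the deeper ones, and none of them held another of the 10 genes at 10 or more. WT 2 cell 38 had 24 UMIs of Cd79b with 138 of Kit and no UMI of the other 9 genes. WT 2 cell 42 had 15 with 145 of Kit and 187 of Hlf, 1 of Blnk and 1 of Il7r. WT 2 cell 33 had 11 of Cd79b alone, and WT 1 cell 14 had 14 with 66 of Flt3 and 82 of Hlf. Over the other cells Cd79b stood at 11.6 and 14.5 CPM in Mat KO and 20.1 and 39.3 CPM in WT, a log2 difference of -1.13 (SE 0.81, edgeR adjusted p 0.791); 22.7% of genes tested in these cells had both Mat KO libraries under both WT libraries.

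WT 2 cell 21, also with 12 UMIs of Cd79b, was a cell of another kind. It had 3130 UMIs of Jchain, 116 of Xbp1, 29 of Mzb1, 26 of Tnfrsf17 and 6 of Cd79a at a depth of 24103 UMIs. Like the co-expressing WT 2 cell 17 it carried genes of antibody-secreting cells, and it lay outside the rule.

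The fit over the other cells tested 7 of the 10 genes, since Cd79a, Ebf1 and Rag1 fell under the expression filter. The edgeR test called none of them (background 0.184% of 10321 genes), and at an unadjusted p under 0.05 it had 2, Dntt and Il7r (background 7.65%). Il7r had 26.5 and 26.3 CPM in the Mat KO libraries and 4.02 and 2.69 in the WT libraries, a log2 difference of 3.01 (SE 1.01, edgeR adjusted p 0.461). The Mat KO values of Il7r came mostly from 1 cell in each library: 37 of 41 UMIs in Mat KO 1 cell 22 and 34 of 40 in Mat KO 2 cell 47. Dntt stood at 157 and 7.89 CPM against 4.02 and 12.1, a log2 difference of 3.39 (SE 1.04, edgeR adjusted p 0.379), with 222 of the 244 UMIs of Mat KO 1 in cell 27; without that cell Mat KO 1 stood at 14.7 CPM. DESeq2 called Dntt (adjusted p 0.0450, background 1.16% of 9920), as did edgeR without Mat KO 2 (adjusted p 6.35e-09), and both fits include the 222 UMIs of cell 27. Vpreb1 and Vpreb3 were higher in both Mat KO libraries (log2 differences 0.79, SE 1.08, and 1.41, SE 0.97, with edgeR adjusted p 0.921 and 0.782), where 16.8% of all genes were. Cell 34 of Mat KO 1, nearest the rule from outside, held 10 of 21 Vpreb1 UMIs and 12 of 46 Vpreb3 UMIs of that library's other cells. Without that cell Vpreb1 of Mat KO 1 would lie under both WT libraries, while Vpreb3 would stay above them. Igll1 (0.65, SE 1.03) and Blnk (0.07, SE 1.66) overlapped.

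These cells with much Dntt or Il7r and little else also held genes of other lymphoid cells, named here after their values were seen. Mat KO 1 cell 27 had 222 UMIs of Dntt, 64 of Ccr9 (a thymus homing receptor), 56 of Thy1, 40 of the T-cell kinase gene Lck and 34 of Satb1, but 1 UMI of Vpreb1 and none of the other 8 genes. In WT 2 the cell with the same barcode had 11 UMIs of Dntt with 3 each of Ccr9, Thy1 and Lck. Mat KO 1 cell 22 held 37 UMIs of Il7r with 313 of Ccl5, 113 of Cd7, 61 of Nkg7, 45 of Tcf7 and 15 of Cd3g. Mat KO 2 cell 47 held 34 of Il7r with 112 of Rora, 92 of Ccl5, 56 of Tcf7 and 27 of Gata3, a factor of T and innate lymphoid cells. Both cells also held class II genes, with 115 UMIs of H2-Aa and 109 of Cd74 in cell 47 and 50 and 30 in cell 22. Ccl5, a chemokine gene of T and NK cells, was itself higher in Mat KO over all kept cells, with 176 and 58.8 CPM against 0.628 and 4.00 (log2 difference 5.66, SE 0.80, edgeR adjusted p 0.0296). These same cells held 313 of 335 Ccl5 UMIs in Mat KO 1 and 92 of 104 in Mat KO 2; without each library's leading cell 22 and 12 UMIs were left in Mat KO and 1 and 4 in WT. Of the other marker genes in the lists, the monocyte gene Ly6c2 was also higher, with 540 and 589 CPM against 94.9 and 105 (log2 difference 2.53, SE 0.26, edgeR adjusted p 0.00344). Its leading cells held 478 of 1027 and 934 of 1041 UMIs in Mat KO, and 228 of 302 and 280 of 342 in WT. Without them 549 and 107 UMIs of Ly6c2 were left in Mat KO and 74 and 62 in WT. With each gene's leading cell per library left out, edgeR called 0 of 9179 genes.

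The share of other cells with a UMI of any of the 10 genes did not separate the genotypes. It was 87.2% in Mat KO 1, 73.3% in Mat KO 2, 83.7% in WT 1 and 87.0% in WT 2 (exact two-sided permutation test over libraries, p = 1). Thinned to 8800 UMIs per cell, it was 58.3%, 41.0%, 41.5% and 48.8%. Mat KO minus WT, the means differed by -5.08 percentage points before thinning and by 4.53 after it, and the WT libraries were the deeper ones. Blnk had an uneven spread, with UMIs in 21 other cells of WT 2, 9 of Mat KO 1, 3 of Mat KO 2 and 1 of WT 1, at 5 UMIs or fewer in every cell.

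Genes with a pattern like the 10 were sought among 11640 genes detected in at least 5 of the 188 kept cells, by the Pearson correlation of log2(CPM + 1) with the log2(CPM + 1) of the summed 10. Among the closest were Mzb1 (r 0.59), an endoplasmic reticulum protein of B cells and plasma cells, Vpreb2 (0.53), Pou2af1 (0.53) and Lef1 (0.52). Slamf7, Agpat9, Tmem108, Akap12 and Bfsp2 followed at 0.52 to 0.49, and the Spearman coefficients of all these lay between 0.30 and 0.49. The points share libraries and depth, so these are descriptions. Akap12, a kinase anchoring protein, reached 10 UMIs in 11 co-expressing cells and in 1 other cell. Bfsp2 did so in 9 and 0, and Slamf7, a surface receptor of lymphoid cells, in 8 and 0.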

How the data were processed

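The files hold UMI counts per gene and cell barcode, deposited by the authors as raw counts; no filter on cells was found in them. TopHat2 2.0.12, HTSeq and the mm10 build are named per the submitters' processing notes, without the step each did. How near-identical genes shared reads was not stated in the labels. Of the rows, 95 spike-in or marker sequences were left out of totals and tests, 4 gene rows with duplicated date-like symbols were left out of fits, and no column lacked a sample. Kept cells are barcodes with 1000 or more detected genes; doublets were not called, since each cell was picked by hand. Counts were summed over cells per library and tested with edgeR 4.0.16 (quasi-likelihood, TMM, filterByExpr, Benjamini-Hochberg over all genes, threshold 0.05; R 4.3.3), and DESeq2 1.42.0 was an alternative. On simulated data for all kept cells (10760 genes tested), edgeR called 50 of 50 genes changed 8-fold, 48 of 50 changed 4-fold, 47 of 50 lowered to 0.25 and 50 of 50 lowered to 0.125, with 6 false calls. The simulation gave every gene the same spread between libraries (dispersion 0.05) and changed only genes with many UMIs. These rates were therefore not shown for genes held by a few cells. In the other cells, log2 differences of 3.39 (Dntt) and 3.01 (Il7r) did not pass the test. For thinned values, 170 cells were thinned to 8800 UMIs and 18 shallower ones left out. Depth limits what is seen: 0 counts allow up to 3. Shares were compared by exact permutation over libraries. Python 3.11.15, scipy 1.17.1 and pandas 2.3.3 were used.

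The genes, gene lists and tests were chosen with earlier results of these data known. Genes are named by this rule: the 10 early B-cell genes, up to 4 further genes per list with the most UMIs in the co-expressing cells, the 10 genes most correlated with the summed level, and list genes past a test's threshold; other stage markers were named after their values were seen, and some genes the rule names are not reported here. Levels are compared between cells or libraries, not between genes. Alternatives covered scaling, filters, thinning, the cell minimum, the co-expression rule, libraries left out and the replicate number as a block.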

Additional observations from a re-analysis of the deposited data

How the results depend on the processing

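With 2 libraries a genotype, a lone cell or library can decide a value. Over all kept cells, 0 of the 10 genes passed, and 1, Vpreb3, passed with no expression filter (edgeR adjusted p 0.0255), and 0 to 1 did with 1 library left out. Replicate numbers did not pair the libraries (r = -0.0173 between same-numbered deviations); with the replicate block 1 gene passed, Vpreb3 (1.56, edgeR adjusted p 0.00102), and 109 genes in all against 8. In the other cells, 0 passed, and 1, Dntt, passed with DESeq2 (adjusted p 0.0450), with no filter (edgeR adjusted p 0.000138) and without Mat KO 2 (0 to 1 with 1 library left out); 15 genes in all passed with the block against 19. Genes called over all kept cells numbered 120 with DESeq2, 149 with no filter, 15 with a stricter filter, 1 with thinning, 5 with at least 2000 genes per cell, 0 without each gene's leading cell per library, and 17 to 123 with 1 library left out; in the other cells they numbered 115, 138, 37, 4 and 6 for the first 5, and 12 to 210.

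The causes of the following sign changes were not tested. Log2 differences near 0 turned positive with RLE scaling (Cd79b 0.0038, Il7r 0.0072) and DESeq2 (Cd79b 0.0037, Il7r 0.0064), and with the block (Cd79b 0.020). Thinning gave -0.070 for Igll1, 0.66 for Cd79b and -0.21 for Ebf1; leaving out the leading cell gave -0.093 for Igll1, 0.20 for Cd79b and 0.84 for Il7r. With 1 library left out Cd79b ran from -0.32 to 0.36, Il7r from -0.94 to 0.67, Rag1 from -1.08 to 0.17, Ebf1 from -0.22 to 0.75 and Cd79a from -0.17 to 0.89. In the other cells Blnk moved to -0.48 with at least 2000 genes and from -1.37 to 3.73 with 1 library left out; thinning left none of the 10 to test. The difference in co-expressing share ran from -1.61 to 4.64 points with 1 library left out and was -0.286 thinned, and that in the share with any UMI ran from -12.0 to 1.84 and was 4.53 thinned. The 2 alternatives chosen after seeing the data, without the 4 co-expressing cells outside the largest group and with 6 genes for the rule, kept 0 genes past the threshold and a difference of 2.56 points. Of the single-gene values over all kept cells, 107 kept direction and side of the threshold, 19 changed sign and 3 passed it; in the other cells these numbered 64, 3 and 3.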
